A study of Mus musculus with 14 samples.

Results

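The comparison concerns the difference between CARIP-/- and wild-type mice that runs in the same direction in the cerebellum, the cerebral cortex and the hippocampus. It took all 7 knockout and all 7 wild-type libraries, which are all 14 libraries of the series, with region as an additive term. Of 24680 genes tested, 3222 (13.1%) had a higher level in the knockout in all 3 regions and 3149 (12.8%) a lower level, together 6371 (25.8%). The other 18309 genes had no common direction, with opposite signs or a difference of 0 in some region. The whole table split evenly by the direction of the fitted difference, with 50% of genes above 0 and 50% below it.

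Total RNA of C57BL/6 mice was sequenced in bulk. The cerebellum was represented by 3 CARIP-/- and 3 wild-type libraries, the cerebral cortex (titled cerebrum) by 2 and 2, and the hippocampus by 2 and 2. Counted reads per library ranged from 20.1 to 38.8 M (M is 1000000 reads), with a median of 24.7 M. CARIP-/- is the only alteration that the labels name, both genotypes share the C57BL/6 strain, and no treatment is given. Age, the way the allele was made and the long form of CARIP do not appear in the labels, and no gene of the annotation carries that name, so the targeted transcript could not be read. The libraries are numbered 1 to 3, and whether those of 1 genotype and number come from 1 mouse is not stated. If they do, the p-values over 14 libraries are too small, and in any case they measure the spread between these libraries.

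Some background orders the genes below. Glucocorticoids act through a nuclear receptor that binds short palindromic DNA elements, and in the brain the hormone raises a set of genes in astrocytes, vessels and neurons. Immediate early genes are transcribed within minutes of neuronal activity or other stimuli, many of them through factors bound to cAMP and serum response elements. Sterol synthesis genes are driven together by the transcription factor SREBF2 when cell cholesterol is low. Acute-phase genes and endothelial selectins are switched on by cytokines.

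In the fit over all regions, 4 genes rose in the knockout and 2 fell. Fam107a, an actin-associated protein induced by stress and glucocorticoids, rose 1.80-fold. Xdh, the xanthine dehydrogenase that makes uric acid, rose 1.85-fold, Acer2, a Golgi ceramidase that releases sphingosine, 1.83-fold, and Podxl, the sialomucin podocalyxin of vascular endothelium, 1.53-fold. Arl4d, a small GTPase of the ARF-like family, fell to 0.546 of the wild-type level, and Sgk1, the serum- and glucocorticoid-regulated kinase, to 0.640. These 6 genes are 0.0243% of those tested (0.0162% higher and 0.0081% lower, edgeR quasi-likelihood test, Benjamini-Hochberg adjusted p under 0.05). Each lay outside the range of the other genotype in every region, as did 0.693% of all genes tested. A small p in the same libraries favours such a separation, so it adds no support. At an unadjusted p under 0.05 there were 1350 genes (5.47%), 698 higher (2.83%) and 652 lower (2.64%).

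Levels are counts per M reads (CPM) of TMM-scaled library totals, and log2 fold changes are knockout over wild type. Fam107a (ENSMUSG00000021750.15, chromosome 14, 8296274 to 8318023, GRCm38) was the most abundant of the 6. In the cerebellum it was at 1003, 801 and 787 CPM in the knockout, against 599, 440 and 450 in wild type. In the cortex it was at 764 and 751 against 502 and 314 CPM, and in the hippocampus at 644 and 578 against 361 and 311. All 7 knockout libraries were above every wild-type library of their region, and the log2 fold change was 0.84 ± 0.11 (SE, n = 7 and 7, edgeR adjusted p = 0.026). The regional log2 fold changes lay close together, at 0.80, 0.89 and 0.87 in cerebellum, cortex and hippocampus.

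Xdh (ENSMUSG00000024066.8, chromosome 17, 73883895 to 73950196) was less abundant and differed as much. Its cerebellar levels were 27.1, 31.9 and 19.9 CPM in the knockout, against 14.3, 15.6 and 13.1 in wild type. Cortical levels were 31.9 and 36.0 against 20.6 and 13 CPM, and hippocampal levels 20.7 and 22.3 against 12.4 and 12.5. The hippocampal groups were the tightest, and the log2 fold change over all regions was 0.89 ± 0.12 (edgeR adjusted p = 0.026).

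Podxl (ENSMUSG00000025608.9, chromosome 6, 31519488 to 31563981) stood at 47.6, 45.4 and 36.1 CPM in knockout cerebellum and 23.5, 33.1 and 28.4 in wild type. In the cortex it stood at 66.7 and 68.7 against 45.9 and 37.6 CPM, and in the hippocampus at 42.0 and 39.3 against 27.4 and 28.0. The nearest approach of the genotypes was in the cerebellum, and the log2 fold change was 0.62 ± 0.09 (edgeR adjusted p = 0.038). Acer2 (ENSMUSG00000038007.14, chromosome 4, 86874396 to 86934822) was at 14.9, 16.3 and 11.9 CPM against 5.56, 9.55 and 8.48 in the cerebellum. It was at 17.1 and 19.7 against 8.51 and 8.98 CPM in the cortex and at 10.4 and 10.6 against 5.95 and 7.28 in the hippocampus. Its log2 fold change was 0.87 ± 0.13 (edgeR adjusted p = 0.043), with the highest regional value, 1.07, in the cortex.

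Arl4d (ENSMUSG00000034936.2, chromosome 11, 101665541 to 101667832) was at 4.11, 4.65 and 5.26 CPM in knockout cerebellum and 7.37, 9.83 and 7.34 in wild type. Cortical levels were 7.94 and 8.70 against 12.5 and 20.9 CPM, and hippocampal levels 7.22 and 6.80 against 10.6 and 14.3. Wild-type library 3 was the highest in cortex and hippocampus, and the log2 fold change was -0.87 ± 0.13 (edgeR adjusted p = 0.049). Sgk1 (ENSMUSG00000019970.15, chromosome 10, 21882184 to 21999903) was at 72.1, 73.4 and 62.4 CPM in knockout cerebellum and 95.9, 136 and 101 in wild type. In the cortex it was at 65.2 and 87.3 against 109 and 94.7 CPM, and in the hippocampus at 82.0 and 84.3 against 138 and 154. The cortical groups came nearest to each other, and the log2 fold change over all regions was -0.64 ± 0.10 (edgeR adjusted p = 0.049).

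**Figure D1:**
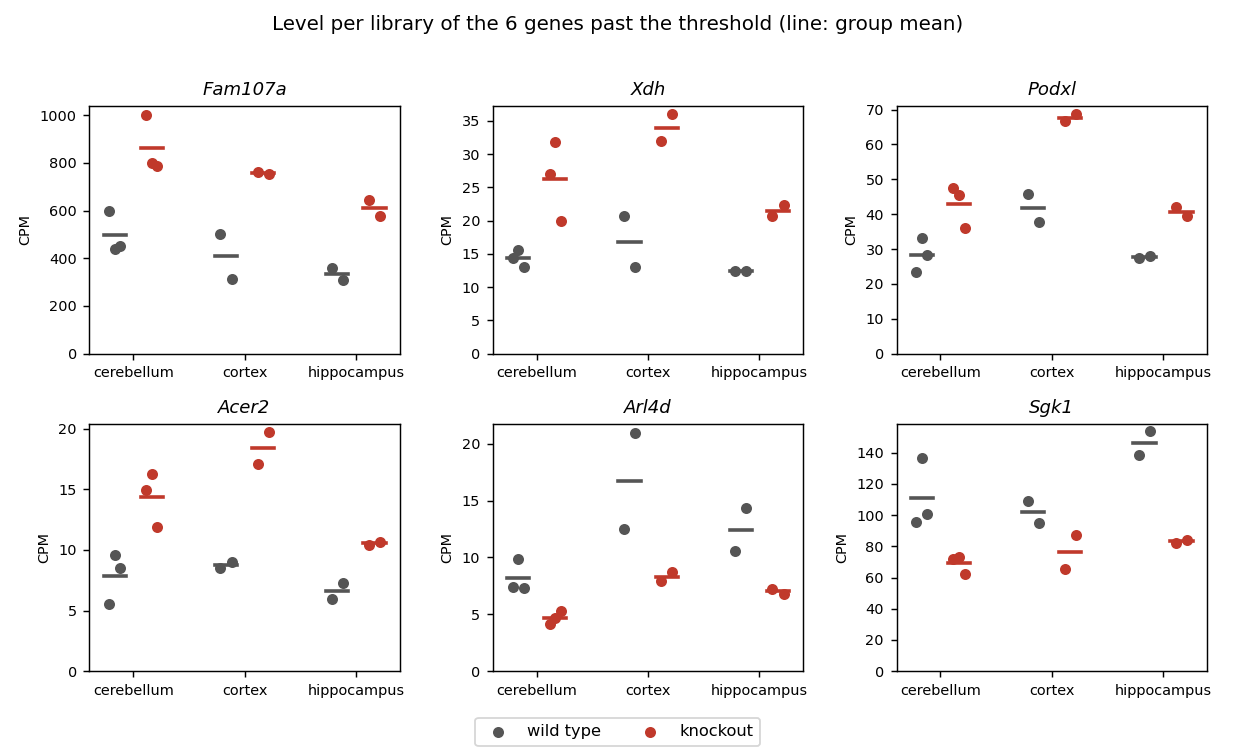
Level of the 6 genes that passed the threshold, in CPM on a linear axis from 0, for each library by region. Points are libraries (grey wild type, red knockout) and lines group means; in each panel the genotypes do not overlap within any region.

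The number of calls depended on single libraries. Without any one of cerebellar knockout 1 or 2, cerebellar wild type 3, cortical knockout 1 or the 4 hippocampal libraries no gene passed, and 1 passed without cerebellar wild type 1. There were 2 calls without cortical wild type 2 or 3, 4 without cerebellar wild type 2, 8 without cerebellar knockout 3 and 21 without cortical knockout 2. Fam107a passed in 6 of these 14 fits, Xdh in 5, Podxl and Acer2 in 3, Arl4d in 2 and Sgk1 in 1, and none changed direction. With 1 value per genotype and number, 3 against 3, no gene passed (limma, 1105 at an unadjusted p under 0.05). With genotype and number as a random block in limma 4 passed, all higher, and these were the same 4 as in edgeR.

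The promoters of Fam107a, Sgk1 and Arl4d are shown because the first pair of genes responds to glucocorticoids and moved in opposite directions here, and because Arl4d was the most reduced of the 6. Each is a RefSeq window of 300 bases on GRCm38.p6, read 5′ to 3′ on the gene's strand. Capitals mark the glucocorticoid response element half-site TGTTCT on either strand in Fam107a and Sgk1 and the cAMP response element TGACGTCA in Arl4d.
Fam107a, chr14:8309730-8310029, minus strand: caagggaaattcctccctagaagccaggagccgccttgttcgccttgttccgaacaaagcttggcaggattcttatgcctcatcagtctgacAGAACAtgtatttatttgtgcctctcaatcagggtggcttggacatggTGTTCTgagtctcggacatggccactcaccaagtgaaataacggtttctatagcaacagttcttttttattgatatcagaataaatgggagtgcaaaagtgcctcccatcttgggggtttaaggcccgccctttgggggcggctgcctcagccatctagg
Sgk1, chr10:21993640-21993939, plus strand: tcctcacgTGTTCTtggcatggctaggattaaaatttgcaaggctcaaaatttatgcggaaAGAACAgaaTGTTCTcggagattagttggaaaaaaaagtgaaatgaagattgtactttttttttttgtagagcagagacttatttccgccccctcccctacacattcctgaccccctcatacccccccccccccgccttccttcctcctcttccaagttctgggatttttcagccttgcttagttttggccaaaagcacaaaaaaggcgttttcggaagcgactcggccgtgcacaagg
Arl4d, chr11:101665291-101665590, plus strand: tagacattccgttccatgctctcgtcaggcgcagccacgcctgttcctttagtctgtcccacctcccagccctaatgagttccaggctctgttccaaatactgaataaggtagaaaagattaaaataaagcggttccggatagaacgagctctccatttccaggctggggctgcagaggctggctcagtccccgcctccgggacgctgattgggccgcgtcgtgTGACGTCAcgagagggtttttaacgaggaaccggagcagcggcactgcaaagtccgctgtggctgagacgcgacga
The Sgk1 window held 3 half-sites, of which a pair facing each other forms a palindrome, and the Fam107a window held 2. Both genes have several annotated starts, and these windows were chosen for their matches. Half-sites occurred in 19.0% of the 32851 promoters of the table and the cAMP response element in 1.79%. Of the 12 genes named by smallest p, 7 had a promoter in the table, and 3 of these held a half-site in at least 1 window and 1 held the cAMP response element. E-boxes (CACGTG, 7.15% of promoters) were found in 1 of the 7, the sterol response element (TCACNCCAC, 1.24%) in 0 and the CCAAT box (37.4%) in 4. The percentages count single promoters, while the counts of named genes take any window of a gene. A gene with several windows has more room for a match, so the 2 cannot be compared directly. A match describes letters in the window and was not tied to binding.

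The next genes by p did not pass. Tcf23, a basic helix-loop-helix factor, had a log2 fold change of 1.25 ± 0.21 (edgeR adjusted p = 0.064) at levels of 0.758 to 1.94 CPM in the knockout and 0.293 to 0.750 in wild type. Gm45644 had 1.09 ± 0.18 (adjusted p = 0.064). On the lower side, Ddit4, a stress-induced inhibitor of mTORC1, had -0.62 ± 0.11 (adjusted p = 0.069). Ptn, the heparin-binding growth factor pleiotrophin, had -0.52 ± 0.09 (0.086), Rbm3, a cold-inducible RNA-binding protein, -0.63 ± 0.12 (0.094), and Cd93, an endothelial glycoprotein, -0.51 ± 0.10 (0.13). Rbm3 was at 55.7, 41.5 and 62.4 CPM in knockout cerebellum against 83.5, 65.1 and 74.2 in wild type, at 35.9 and 23.6 against 45.3 and 51.1 in the cortex, and at 35.8 and 30.2 against 61.6 and 52.7 in the hippocampus. Like the 6 called genes, these 6 had genotypes that did not overlap in any region, against 0.693% of all genes tested. Choosing genes by a small p and 1 direction in the same libraries favours this, so it adds no support.

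**Figure D2:**
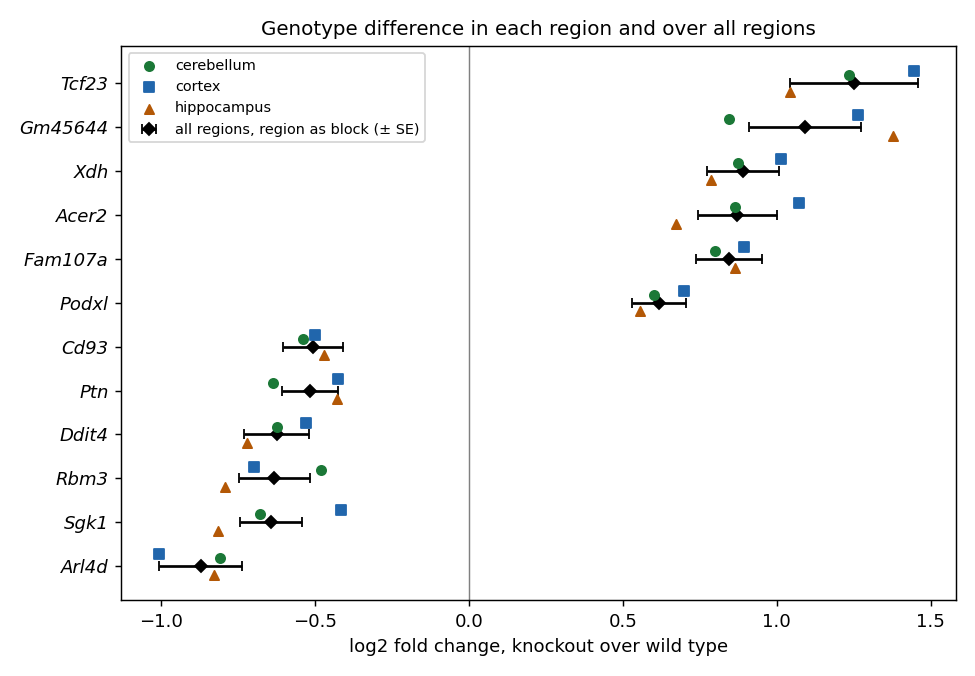
Log2 fold change of the 12 genes with the smallest p in the fit over all regions (6 per direction), for each region (coloured symbols) and over all regions (black diamonds, bars ± SE). All symbols of a gene lie on the same side of 0, as the choice of genes required. Tcf23 reaches 1.45 in the cortex and Arl4d -1.01.

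Genotypes did not overlap in any of the 3 regions for 171 genes (0.693%), 106 higher (0.429%) and 65 lower (0.263%). The median size of their log2 fold change was 0.55 for the higher and 0.42 for the lower genes, and 22 and 9 of them reached a size of 1. Protein-coding genes made up 137 of the 171 (80.1%, against 65.2% of all genes tested). Among those chosen after their values were seen, Etnppl, the ethanolamine-phosphate phospho-lyase of astrocytes, was at 138, 134 and 109 CPM against 84.0, 102 and 100 in the cerebellum, 72.1 and 97.8 against 38.4 and 28.8 in the cortex, and 52.5 and 48.4 against 27.1 and 26.5 in the hippocampus (log2 fold change 0.82 ± 0.14, edgeR adjusted p = 0.070). Fbln5, an elastic-fibre protein, had 1.41 ± 0.25 (0.086), and Slc27a1, a fatty acid transporter, 0.32 ± 0.07 (0.19). Pnpla7, a lysophospholipase, had 0.43 ± 0.09 (0.18).

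Of the microRNA genes, Mir495 (chromosome 12, 109718754 to 109718816) had the smallest p, with 7 to 17 reads in the knockout libraries and 19 to 40 in wild type. Its level was 0.486, 0.549 and 0.363 CPM in knockout cerebellum against 1.28, 1.33 and 1.37 in wild type, 0.467 and 0.267 against 1.19 and 1.52 in the cortex, and 0.312 and 0.611 against 1.34 and 0.747 in the hippocampus. The log2 fold change was -1.52 ± 0.24 and did not pass (edgeR adjusted p = 0.060). Libraries of total RNA count reads over the hairpin gene, which can come from a longer precursor, so the mature forms were not measured. Those forms are given with the seed in capitals, from RefSeq.
mmu-miR-495-5p: gAAGUUGCccauguuauuuuucg
mmu-miR-495-3p: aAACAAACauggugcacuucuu
Mir411, of the same chromosome, had a log2 fold change of -0.96 ± 0.23 (adjusted p = 0.33), and its mature forms carry other seeds.
mmu-miR-411-5p: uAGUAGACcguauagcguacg
mmu-miR-411-3p: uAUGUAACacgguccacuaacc

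Genes that glucocorticoids regulate went both ways. Of 22 listed genes 14 were higher and 8 lower in the knockout (median log2 fold change 0.14, against -0.00011 over all genes tested). In every region 8 were higher and 7 lower (13.1% and 12.8% of all genes). Fam107a and Xdh rose and Sgk1 fell, and no other member passed. The list was drawn up with earlier results of these data known, so it is no independent evidence. The best known targets split: Fkbp5, a co-chaperone of the receptor, had 0.29 ± 0.17 and Tsc22d3, the leucine zipper GILZ, 0.04 ± 0.11, while Per1 had -0.59 ± 0.12 (edgeR adjusted p = 0.19) and Nfkbia, the inhibitor of NF-kappaB, -0.61 ± 0.12 (0.15). Sult1a1, a sulfotransferase, had 0.62 ± 0.14 (0.27) and Map3k6, a stress kinase, 0.52 ± 0.13 (0.37). Nfkbia was at 12.6, 11.9 and 10.5 CPM against 20.9, 18.5 and 15.3 in the cerebellum, 9.72 and 13.4 against 20.4 and 13.7 in the cortex, and 10.8 and 10.1 against 18.8 and 13.5 in the hippocampus. Without all wild-type libraries numbered 3 the list's median was -0.10.

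Immediate early genes were all on the lower side, and none passed. Of 23 genes, 23 had a negative log2 fold change (median -0.50), 15 in every region (12.8% of all genes) and 11 at an unadjusted p under 0.05 (2.64%). The wild-type libraries numbered 3 were the highest of their regions in the summed level of the list, at 565 CPM in the cerebellum, 2798 in the cortex and 1474 in the hippocampus. The other wild-type libraries came close to the knockout in part: cerebellar wild type 1 had 353 CPM against 290 to 385 in the knockout, and hippocampal wild type 2 had 959 against 1052 and 1072. The regional medians were -0.44 in the cerebellum, -0.89 in the cortex and -0.28 in the hippocampus. Egr1, a zinc finger factor, was at 31.0, 29.6 and 31.4 CPM in knockout cerebellum against 33.0, 36.4 and 34.8, at 160 and 136 against 228 and 457 in the cortex, and at 79.4 and 93.6 against 90.2 and 162 in the hippocampus (log2 fold change -0.58 ± 0.19, edgeR adjusted p = 0.64). The highest level of Egr1 in cortex and hippocampus was in wild-type library 3. Homer1, a postsynaptic scaffold whose short form follows activity, had -0.29 ± 0.19. It had -0.11 without cortical wild type 3, -0.17 without cortical knockout 2 and 0.0017 without all wild-type libraries numbered 3. Over all alternatives the median of the list was between -0.70 and -0.17, the latter without all wild-type libraries numbered 3. Klf2, a factor of flow-exposed endothelium, was the member whose genotypes did not overlap in any region, at 3.36, 3.07 and 4.30 CPM against 4.63, 7.27 and 8.21 in the cerebellum, 6.03 and 5.94 against 9.96 and 10.1 in the cortex, and 4.19 and 4.71 against 5.74 and 6.88 in the hippocampus (-0.75 ± 0.14, adjusted p = 0.13).

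Of the circadian clock genes 8 of 19 were higher and 11 lower, with a median of -0.06 that lay between -0.12 and -0.02 over all alternatives. In every region 8 were lower and 2 higher (12.8% and 13.1% of all genes), 5 were lower and 0 higher at an unadjusted p under 0.05 (2.64% and 2.83%), and none passed. Per1, which light and hormones induce, and Ciart, a repressor of the clock, had genotypes that did not overlap in any region. Ciart was at 13.8, 14.6 and 13.7 CPM against 21.6, 20 and 16.7 in the cerebellum, 15.7 and 14.1 against 24.9 and 20.9 in the cortex, and 10.03 and 10.3 against 12 and 11.4 in the hippocampus (-0.44 ± 0.09, edgeR adjusted p = 0.19). The core activators Arntl (0.05 ± 0.11) and Clock (0.04 ± 0.06) had values near 0, as had Nr1d1 (0.09 ± 0.07) and Dbp (-0.05 ± 0.09), which cycle strongly. The most abundant members were Tef, an output factor of the clock (-0.11 ± 0.06), and Rora, an activator of Arntl (0.15 ± 0.09). The labels give no time of day for the collection.

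Sterol synthesis and uptake genes were lower as a list, with 22 of 23 negative, a median of -0.30, 10 lower in every region (12.8% of all genes) and 12 at an unadjusted p under 0.05 (2.64%). None passed, and the median was between -0.43 and -0.16 over all alternatives, with -0.16 without the cerebellum and -0.18 without all knockout libraries numbered 1. Hmgcs1, an early enzyme of sterol synthesis, had -0.64 ± 0.21 (edgeR adjusted p = 0.63). Cerebellar wild type 2 was at 216 CPM of it against 102 and 76.8 in the other wild-type cerebella, and without that library the value was -0.40. Lss, lanosterol synthase, had -0.32 ± 0.08 (0.36), and Srebf2 itself -0.25 ± 0.08 (0.62). The cerebellar median was -0.43, the hippocampal -0.35 and the cortical -0.05. Oligodendrocytes, which make much of the brain's cholesterol, had markers with medians of -0.67, 0.34 and -0.54 in cerebellum, cortex and hippocampus. Of 15 such markers 10 were lower, and their summed level was 2431 to 4590 CPM in knockout cerebellum against 2714 to 9448 in wild type, 2355 to 6074 against 1918 to 3860 in the cortex and 3213 to 4313 against 4827 to 5651 in the hippocampus. The marker median over all regions was -0.35, and it was -0.05 without cerebellar wild type 2. The part of oligodendrocytes in the sterol values was not tested. In bulk tissue, fewer cells of a type and less RNA per cell cannot be told apart.

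Acute-phase and inflammation genes had a median of 0.78, with 14 of the 16 tested (of 20 listed) higher and 12 higher in every region (13.1% of all genes). None passed, and 7 were higher at an unadjusted p under 0.05 (2.83%). The summed level of the list overlapped between genotypes in 2 regions. It was 48.2 to 68.5 CPM in knockout cerebellum against 38.2 to 58.5 in wild type, and 176 to 210 against 163 to 186 in the hippocampus. In the cortex it was 120.6 to 121.2 CPM against 88.8 to 90.2. The median was 0.51 without all knockout libraries numbered 1 and 1.09 without all wild-type libraries numbered 2. Lcn2, the siderophore-binding lipocalin, was at 8.58, 7.07 and 2.95 CPM in knockout cerebellum against 1.15, 1.23 and 0.236, at 11.8 and 10.8 against 3.10 and 0.381 in the cortex, and at 5.22 and 2.83 against 1.30 and 0.157 in the hippocampus (2.69 ± 0.50, edgeR adjusted p = 0.13). Its knockout levels stood above wild type in each region, and wild-type library 3 was the lowest in all of them. Lrg1, an acute-phase glycoprotein, had 1.31 ± 0.29 (0.24). Osmr, the oncostatin M receptor, had 0.70 ± 0.15 (0.19) and was chosen after its values were seen. The neutrophil proteins S100a8 and S100a9 had 1.21 ± 0.48 and 1.62 ± 0.45, Icam1, an adhesion molecule, 0.37 ± 0.28, and Socs3, a feedback inhibitor of cytokine signals, 0.37 ± 0.23. Serpina3n, a protease inhibitor of reactive astrocytes and the most abundant member, had 0.65 ± 0.55, with 4.73, 11.4 and 2.36 CPM against 1.01, 13.2 and 1.81 in the cerebellum, where the genotypes overlapped. It had 1.30 without cerebellar wild type 2 and 0.37 without cortical knockout 2. Vcam1, another adhesion molecule, had -0.23 ± 0.17. It had -0.12 without cerebellar wild type 2, -0.15 without hippocampal wild type 2, -0.37 without cortical knockout 2 and 0.05 without all wild-type libraries numbered 2.

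The endothelial selectins were rare transcripts with large ratios. Selp (P-selectin) had 72 reads over the knockout libraries and 3 over wild type, a depth-scaled ratio of 24.0 (95% Clopper-Pearson interval 7.88 to 119, counting error only). Sele (E-selectin) had 99 and 8 reads, a ratio of 12.4 (6.04 to 29.4). Selp had 2 to 17 reads in each knockout library and was at 0 in 6 of the 7 wild-type libraries. Wild-type libraries had at most 3 reads of Selp and 4 of Sele. The low-count filter thus kept both genes through their knockout libraries alone, which favours a high ratio, and both were chosen after their values were seen. Neither passed (edgeR adjusted p = 0.063 and 0.12). The general markers of endothelial and mural cells were balanced beside them, with 10 of 19 higher, 9 lower and a median of 0.00063. The most abundant were Flt1, a VEGF receptor (0.28 ± 0.09, adjusted p = 0.62), and Rgs5, a pericyte marker (-0.18 ± 0.07, 0.77). Pecam1 had 0.04 ± 0.09 and Cldn5, a tight-junction protein, 0.06 ± 0.14, against 0.69 ± 0.15 for Ly6a and -0.66 ± 0.15 for Itm2a (adjusted p = 0.23 and 0.24).

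**Figure D3:**
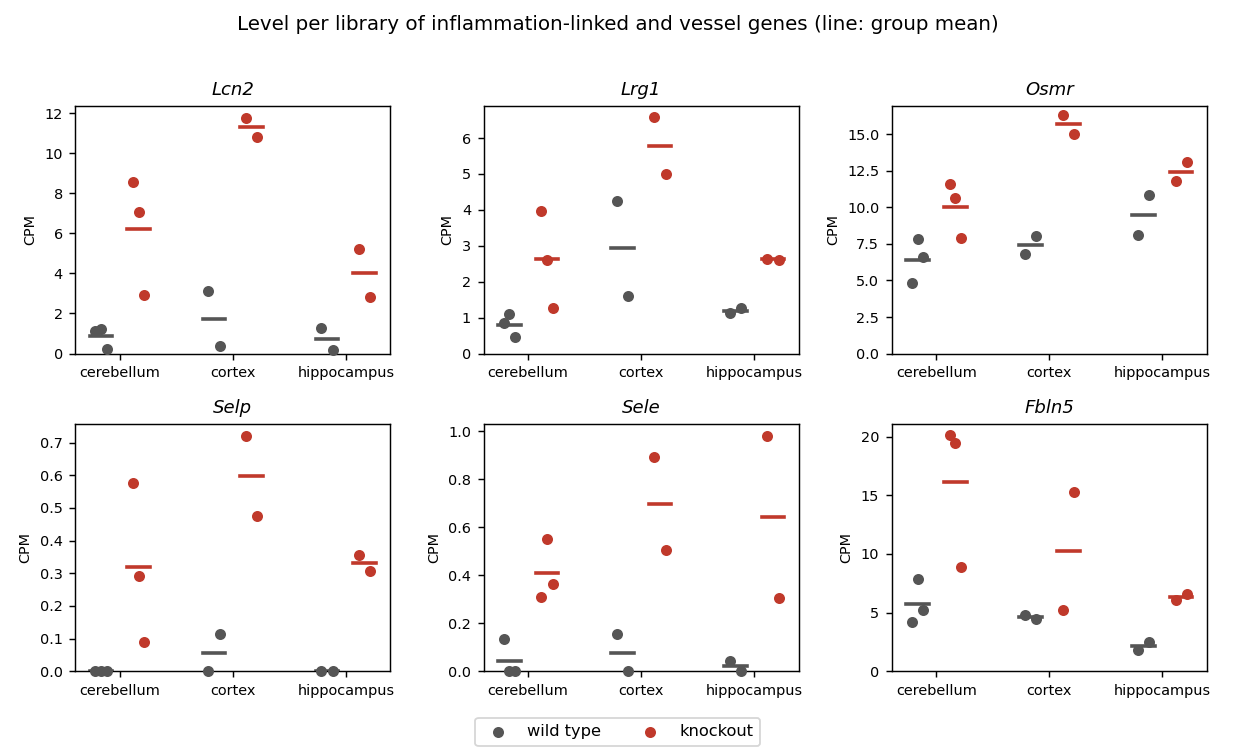
Level of 6 genes linked to inflammation or vessels, in CPM on linear axes from 0, for each library by region (grey wild type, red knockout, lines group means). The 6 genes were chosen after their values were seen, so it is no independent evidence that the knockout points lie above wild type in every panel. Serpina3n and Vcam1, whose genotypes overlapped in the cerebellum, are not shown. Selp and Sele stay below 1 CPM throughout.

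Collagens of meningeal fibroblasts were lower in all regions without passing. Col1a1 was at 5.93, 7.10 and 5.89 CPM in knockout cerebellum against 19.1, 14.9 and 17.5, at 9.12 and 8.94 against 108 and 13.3 in the cortex, and at 2.50 and 4.97 against 10.7 and 6.10 in the hippocampus (-1.75 ± 0.42, edgeR adjusted p = 0.35). Wild-type cortex library 2 was far above the other cortical libraries. Col1a2 had -1.14 ± 0.27 and Col3a1 -1.37 ± 0.32 (0.31 for each). Over the whole list, collagens included, 7 of 15 markers were higher, 8 lower and the median was -0.18. In every region 5 were lower and 1 higher (12.8% and 13.1% of all genes). The 5 were the 3 collagens with Slc47a1 (-0.86 ± 0.38) and Slc6a20a (-0.18 ± 0.15), and the 1 was Mgp (0.10 ± 0.15). At an unadjusted p under 0.05 there were 4 lower and 0 higher (2.64% and 2.83% of all genes). The median depended on single libraries, with -0.06 without hippocampal wild type 2 and -0.29 without hippocampal wild type 3, -0.11 without cortical knockout 1 and -0.28 without cortical knockout 2. The summed level of the list was 414 to 578 CPM in knockout cerebellum against 575 to 694, 394 to 931 against 469 to 770 in the cortex, and 239 to 319 against 133 to 303 in the hippocampus. The part of meningeal tissue in the collagen values was not tested.

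Several synaptic and housekeeping lists had medians near 0. AMPA and kainate receptors had a median of -0.0016 (10 of 21 higher) and NMDA receptors -0.06 (0.12 without all wild-type libraries numbered 2). Calcium-calmodulin kinases and calcineurin had -0.08, with 18 of 24 lower. In every region 9 of them were lower and 1 higher (12.8% and 13.1% of all genes). Synaptic vesicle genes had -0.04 and nuclear oxidative phosphorylation genes -0.00035. Mitochondrially encoded mRNAs differed by region, with medians of -0.15 in the cerebellum, 0.62 in the cortex and 0.09 in the hippocampus. Of 13, 0 were higher in every region (13.1% of all genes), while 12 were higher over all regions with a median of 0.17. That median was 0.37 without the cerebellum and -0.01 without the cortex, and leaving out 1 library moved it to 0.27 without cerebellar wild type 2, 0.11 and 0.09 without cortical knockout 1 or 2, and 0.07 and 0.10 without cortical wild type 2 or 3. Astrocyte markers had a median of 0.04, and microglia markers 0.07. Within the astrocyte list, Gjb6, a connexin, had 0.41 ± 0.09 (edgeR adjusted p = 0.21), and Ednrb, an endothelin receptor, -0.64 ± 0.17 (0.44). No member of these lists passed.

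**Figure D4:**
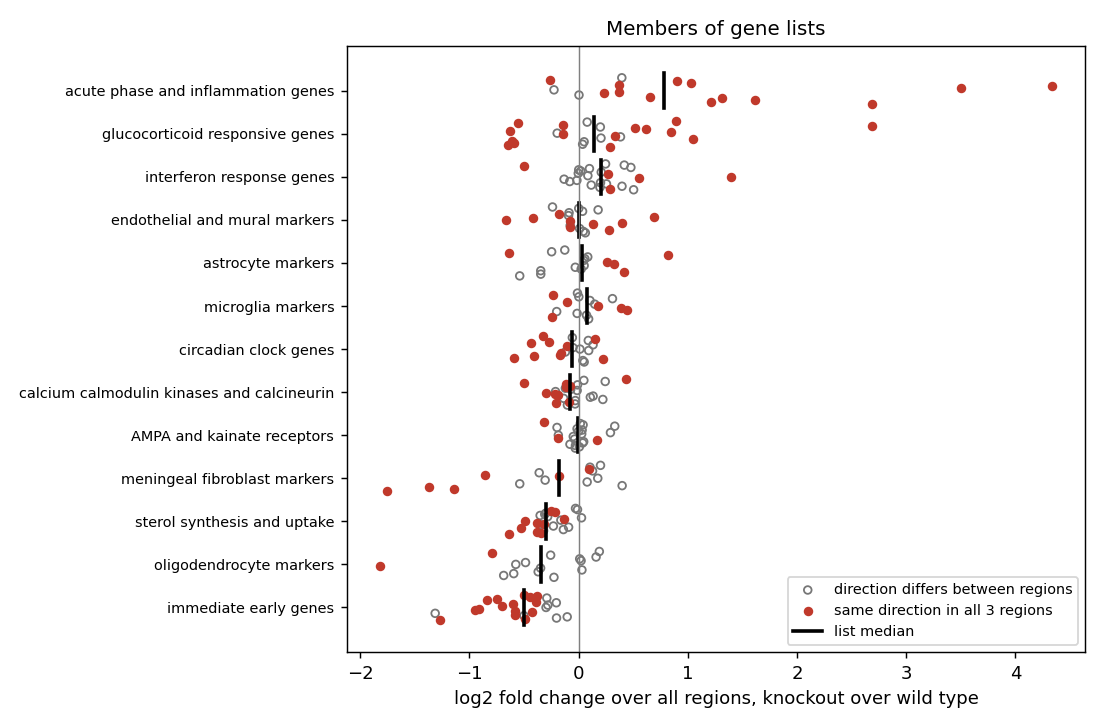
Log2 fold change over all regions of the members of 13 gene lists, 1 point per gene, with the list median as a black bar. Filled points have the same direction in all 3 regions and open points do not; all 23 immediate early genes lie below 0 and 14 of 16 acute-phase and inflammation genes above it.

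Some libraries differed from the others of their region in markers of neighbouring tissue. Knockout cortex library 2 had a summed striatal marker level of 1538 CPM, where the other cortical libraries had 464 to 570, and 653 CPM of choroid plexus markers. Cerebellar wild-type library 1 had 39.5 CPM of choroid plexus markers, and cerebellar wild-type library 2 had 9448 CPM of oligodendrocyte markers. Hippocampal wild-type library 2 had 1229 CPM of choroid plexus markers, where the other hippocampal libraries had 99.8 to 151. Without knockout cortex library 2 all 6 called genes passed again among 21, without cerebellar wild-type library 1 there was 1 call, without library 2 there were 4 and without hippocampal wild-type library 2 there were 0.

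In the fit of the 6 groups no gene passed in any region (0% of 24680 in each, edgeR). At an unadjusted p under 0.05 there were 785 genes in the cerebellum, 1825 in the cortex and 472 in the hippocampus. With each region fitted to its own libraries the calls were 0 in the cerebellum, 0 in the cortex and 4 in the hippocampus (3 higher, 1 lower), with 800, 439 and 1492 genes at an unadjusted p under 0.05. The difference of the genotype effect between regions was tested directly and passed for 0 genes, with 635 (2.57%) at an unadjusted p under 0.05. For the 6 called genes the unadjusted p of that test was 0.32 to 0.94, which does not show that their effects are equal.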

How the data were processed

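The authors deposited 1 table of whole-number read counts per gene for 14 libraries, not normalized. Per the submitters' processing notes, Trim Galore 0.6.4, cutadapt 2.10, STAR 2.7.3a and featureCounts 2.0.1 were used with GRCm38.p6 (mm10). No source used here gives strandedness, the annotation release or the treatment of multi-mapped reads, so antisense, overlapping and near-identical genes are uncertain. Of 48440 identifiers, 11640 had 0 reads throughout and 48058 matched GENCODE M21 when the version was ignored. Symbols and gene coordinates come from M21.

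Genes were filtered with edgeR's filterByExpr on the 6 groups, which kept 24680, scaled by TMM and fitted with edgeR 4.0.16 (R 4.3.3), robust quasi-likelihood, on region and genotype (10 residual degrees of freedom, biological coefficient of variation 24.6%). Regional effects and their difference came from a fit of the 6 groups. P-values were adjusted by Benjamini-Hochberg over all genes, with a threshold of 0.05. Standard errors are the log2 fold change over the square root of the F statistic. CPM were computed here from the deposited counts. Alternatives were edgeR with RLE size factors, DESeq2 1.42.0, limma 3.58.1 (statmod 1.5.0), blocks and left-out libraries. In data simulated for the comparison over all regions (24236 genes), 83% of 2-fold and 95% of 4-fold changes were recovered, and 9 of 187 calls were false. There 100 genes of each size, picked above a minimum mean level, changed equally in every region, and libraries were independent. So many changed genes loosen the adjusted threshold, so these shares do not give the recovery in the real data, where far fewer genes passed.

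Lists were described by counts and medians. The genes named were the 6 per direction with the smallest p among genes with 1 direction in all regions and a mean log2 CPM of at least 0, passing list members or else the 2 most abundant, and the 3 genes with the smallest interaction p. Others are named as chosen after their values were seen, which holds for every further list member with values in the text. The members, lists and tests were chosen with earlier results of these data known.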

Additional observations from a re-analysis of the deposited data

Results flagged for a closer look

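The 3 genes with the smallest p of the test of a difference between regions had knockout libraries all above wild type in 1 region and all below it in another. Choosing genes by that p in the same libraries favours such a crossing, so it adds no support. The share of all genes tested that cross in this way was not counted. Kctd8, a subunit of GABA-B receptors, had log2 fold changes of -0.37 in the cerebellum, 0.58 in the cortex and 0.90 in the hippocampus. Ogn, the proteoglycan osteoglycin, had -0.45 in the cerebellum and 1.50 in the hippocampus. Hdc, histidine decarboxylase, had 2.17 in the cortex and -0.64 in the hippocampus. None passed over all genes in the interaction test (edgeR adjusted p = 0.999 for each, unadjusted 0.00056, 0.00075 and 0.00078).

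For the mean log2 level of 3 gene lists, all knockout libraries lay above wild type in the cortex and below it in the hippocampus. The lists drawn up numbered 32. In these regions such a separation rests on 2 libraries per genotype, so it adds no support. Interferon response genes had a median of 0.25 in the cortex and -0.18 in the hippocampus, choroid plexus markers 2.62 and -1.70, and striatal neuron markers 2.04 and -0.52. Single libraries stood out in the choroid plexus and striatal lists. Summed choroid plexus markers were at 653 CPM in cortical knockout 2 and 45.4 in knockout 1, against 23.8 and 40.7 in wild type, and at 1229 CPM in hippocampal wild type 2 and 151 in wild type 3, against 111 and 99.8 in the knockout. Summed striatal markers were at 1538 CPM in cortical knockout 2 and 570 in knockout 1, against 534 and 464 in wild type. The differences between regions were not tested.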

How the results depend on the processing

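Over all regions edgeR called 6 genes, and the same number with RLE size factors, all 6 shared. Without the low-count filter there were 12 calls, with DESeq2 96 and with limma quality weights 109, each holding the 6. Averaging the 3 regional effects gave 1 call that was none of the 6, 1 value per genotype and number gave 0, and a random block gave 4, all among the 6. Leaving out 1 library gave 0 to 21 calls. Without the cerebellum there were 0, without the cortex 3 and without the hippocampus 0. Without all libraries of knockout number 1, 2 or 3 there were 1, 5 and 8 calls, of which 0, 1 and 5 were among the 6; the 5 were all lower. Without those of wild-type number 1, 2 or 3 there were 1, 0 and 29, of which 1, 0 and 2 were among the 6. These fits were chosen after seeing the data. None of the 31 alternatives reversed the 6 genes: Fam107a passed in 16, Xdh in 13, Podxl and Acer2 in 10, Arl4d and Sgk1 in 7. The cause was not tested. Homer1 turned to 0.001731 without all wild-type libraries numbered 3, and Vcam1 to 0.047845 without those numbered 2.

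With the replicate block over all regions there were 23 calls, 5 of them shared, and in the cortex 3. Same-numbered libraries of the genotypes had correlated deviations of 0.32, 0.81 and 0.43 in the cerebellum, 0.38 in the cortex and -0.14 in the hippocampus. In the cerebellum knockout 1 had 0.38 with wild type 3, and knockout 3 had 0.52 with wild type 1. Other differently numbered pairs there had -0.66 to -0.49. In cortex and hippocampus, with 2 libraries per genotype, the values of a region can differ only in sign. Numbers were not taken to pair the genotypes. The hippocampus fitted alone gave 4 calls. Leaving out 1 library gave 0 to 1 calls in the cerebellum, 0 to 3005 in the cortex, 0 to 0 in the hippocampus and 0 to 434 for the difference between regions; the 3005 and 434 arose without knockout cortex library 1, where the lone knockout cortex library was assumed to vary like the other groups. Genes without overlap numbered 131 to 219 higher and 81 to 206 lower, since fewer libraries have to be separated. Ratios of rare transcripts are limited by depth.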

Other observations

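Reads of Hist1h4m and Gm5859 divided the wild-type libraries by number in every region. Hist1h4m, a histone H4 gene with near-identical copies, had 162 reads in cerebellar wild type 1 and 198, 216 and 191 in the wild-type libraries numbered 2 of cerebellum, cortex and hippocampus. It had 12, 21 and 17 in those numbered 3 and 7 to 19 in all 7 knockout libraries. Gm5859 had 27 reads in wild type 1, 19, 59 and 21 in those numbered 2, 3, 0 and 0 in those numbered 3 and 0 to 2 in the knockout. Wild-type libraries numbered 2 were thus alike in these genes across regions, and so were those numbered 3. The genes did not tell the knockout numbers apart. Over genes with a mean log2 CPM of at least 1, deviations from the group mean were correlated between regions. Same-numbered libraries had -0.09 to 0.21 in wild type and 0.12 to 0.42 in the knockout. Differently numbered libraries had -0.21 to 0.14 and -0.42 to 0.35. Whether they came from 1 mouse is not given in the labels.

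Gm27199, annotated antisense to and overlapping Lhx5 (chromosome 5, 120419659 to 120431767, GRCm38), had 0 reads in all 7 knockout libraries. In wild type it had 16, 28 and 35 reads in the cerebellum, 0 and 0 in the cortex and 0 and 2 in the hippocampus. The difference is thus one of the cerebellum, where it was at least 24.8-fold lower in the knockout against 3 reads over the group. The low-count filter kept the gene through the wild-type cerebellum alone, which favours such a difference. Gm27199 did not pass (edgeR adjusted p = 0.19), nor in any of 30 alternatives. Strand is not known, so the reads of both genes cannot be told apart. Lhx5 had 214 to 240 reads in knockout and 275 to 353 in wild-type cerebellum.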
